A study of Mus musculus with 10 samples.

Results

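The cone phototransduction genes are the 10 genes that encode the proteins with which cone photoreceptors turn light into an electrical signal: the opsins Opn1sw and Opn1mw, the arrestin Arr3, the transducin subunits Gnat2, Gnb3 and Gngt2, the phosphodiesterase subunits Pde6c and Pde6h, and the channel subunits Cnga3 and Cngb3. They were taken by name, as the rows of the deposited table whose Ensembl identifier carries these symbols. No measured value set the list, though earlier results of these data were known when it was chosen. All 10 were found among 57186 genes, and all 10 passed the filter on low counts that left 11499 genes for testing. RNA was measured in bulk neuroretina of female C57BL6/JRj mice, taken 14 days after 1 µL was injected into the vitreous. The CNP group (5 libraries, numbered 4, 8, 12, 16 and 20 in the labels) received carbon nitride nanoparticles (hg-C3N4) at 1 mg/mL in phosphate-buffered saline, and the PBS group (5 libraries, numbered 2, 6, 10, 14 and 18) received the saline, so that both groups share the needle and the volume. The design text counts mice for CNP and eyes for PBS, and the labels do not say whether each library is a separate animal. The p-values below therefore measure the spread between these libraries.

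Cones serve daylight and colour vision and are a small minority of the photoreceptors in the mouse retina, where rods dominate. A photon isomerises the retinal bound to a cone opsin, the opsin activates cone transducin, transducin releases the phosphodiesterase from its inhibitory subunit, cyclic GMP falls and the cyclic-nucleotide-gated channel closes. Mouse cones carry a short-wavelength (ultraviolet-sensitive) and a middle-wavelength (green-sensitive) opsin, and many cones hold both, with the short-wavelength pigment favoured in the ventral and the middle-wavelength pigment in the dorsal retina. Rods run the same cascade with their own paralogues, which makes the rod genes a natural point of comparison.

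The RefSeq promoter table on GRCm38.p6 held 6 of the 10 members (Opn1sw, Opn1mw, Arr3, Gnat2, Pde6h and Cnga3, with 7 windows in all). The 250 bases before the annotated start are shown for both opsins, whose ratio is followed below, and for Gnat2 and Pde6h, whose levels moved together with them across libraries. Capitals mark the letters TAATC or, on the other strand, GATTA, the core that paired-type homeodomain factors such as CRX recognise.
Opn1sw, chr6:29380514-29380763, minus strand: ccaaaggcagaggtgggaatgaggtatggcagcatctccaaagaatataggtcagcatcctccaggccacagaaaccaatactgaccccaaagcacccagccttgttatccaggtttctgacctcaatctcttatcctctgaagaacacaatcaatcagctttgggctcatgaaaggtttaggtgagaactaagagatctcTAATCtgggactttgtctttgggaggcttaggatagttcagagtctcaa
Opn1mw, chrX:74127216-74127465, plus strand: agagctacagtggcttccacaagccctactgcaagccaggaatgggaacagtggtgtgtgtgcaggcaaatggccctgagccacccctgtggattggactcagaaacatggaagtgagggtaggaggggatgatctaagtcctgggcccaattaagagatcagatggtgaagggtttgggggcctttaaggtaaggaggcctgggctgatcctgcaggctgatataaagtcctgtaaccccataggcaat
Gnat2, chr3:108092816-108093065, plus strand: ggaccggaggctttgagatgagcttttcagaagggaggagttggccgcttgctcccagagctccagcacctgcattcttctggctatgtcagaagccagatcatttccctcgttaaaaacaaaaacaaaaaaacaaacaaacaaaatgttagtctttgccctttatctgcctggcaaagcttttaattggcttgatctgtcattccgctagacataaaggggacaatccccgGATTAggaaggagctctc
Pde6h, chr6:136954273-136954522, plus strand: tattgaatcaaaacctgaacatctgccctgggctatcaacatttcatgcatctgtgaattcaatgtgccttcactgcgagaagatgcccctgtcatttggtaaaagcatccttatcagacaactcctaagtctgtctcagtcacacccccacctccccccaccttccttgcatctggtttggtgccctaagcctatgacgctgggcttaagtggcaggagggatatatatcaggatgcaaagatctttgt
The core occurred 1 time before Opn1sw, with its first base at -49 from the start, and 1 time before Gnat2, at -18. It occurred 3 times before Arr3, and not in these windows of Opn1mw, Pde6h or Cnga3. Of 32851 windows of this length in the table, 19.8% held the core at least 1 time. The longer form TAATCC or GGATTA, which contains the core, was present in the Gnat2 window alone among these 7 windows, and in 6.25% of all windows. These matches are descriptions of letters and say nothing of binding.

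The total count per library ran from 3493667 to 5354649 in CNP and from 3328518 to 5428697 in PBS. Together the 10 cone genes took 0.533% ± 0.0384 of all counts in CNP and 0.534% ± 0.0182 in PBS (SD, n = 5 each). Between 18359 and 28672 counts per library stood behind this share. The neuroretina label was met by abundant rod, bipolar and Müller glia markers. The rod transducin subunit Gnat1 stood at 6177 ± 834 CPM in CNP and 6589 ± 1597 CPM in PBS (SD, n = 5 each). CPM are counts per 1000000 counts, scaled between libraries by TMM, the trimmed-mean method of edgeR. Markers of tissue next to the neuroretina were present too: the 11 lens genes summed to 279 to 4017 CPM in CNP and 216 to 8609 CPM in PBS, and the 10 pigment epithelium genes to 1115 to 2998 CPM in CNP and 590.3 to 2892 CPM in PBS. In bulk RNA, fewer cones and less RNA per cone cannot be told apart.

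Abundance spanned a wide range within the cascade. Per kilobase of exon (GENCODE M21 exon union), Opn1sw stood at 880 ± 113 CPM in CNP and 890 ± 123 CPM in PBS (SD, n = 5 each), and Cnga3 at 1.03 ± 0.119 CPM in CNP and 0.947 ± 0.126 CPM in PBS. The order on this scale was Opn1sw, Opn1mw, Gnb3, Gngt2, Gnat2, Pde6h, Arr3, Pde6c, Cngb3 and Cnga3. Opn1sw exceeded Opn1mw 2.56-fold on this scale without overlap between any libraries, and by counts the ratio was 4.21 in CNP and 4.25 in PBS. The neighbours from Opn1mw down to Arr3 overlapped in their library ranges, and Opn1mw exceeded Gnb3 in 9 of 10 libraries and Gnb3 exceeded Gngt2 in 7 of 10. Below Arr3 each step was clear of overlap, with Arr3 at 5.84 times Pde6c, Pde6c at 3.42 times Cngb3 and Cngb3 at 3.28 times Cnga3. The order depends on that division, since counts made from polyadenylated RNA with molecular identifiers need not grow with exon length. Without division by length the order of the middle members differed, with Gnb3 and then Pde6h next after Opn1sw. The Pde6h value per kilobase rests on an exon union of 7846 bases, the longest of the 10. Where reads lay along the transcripts was not analysed here.

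**Figure D1:**
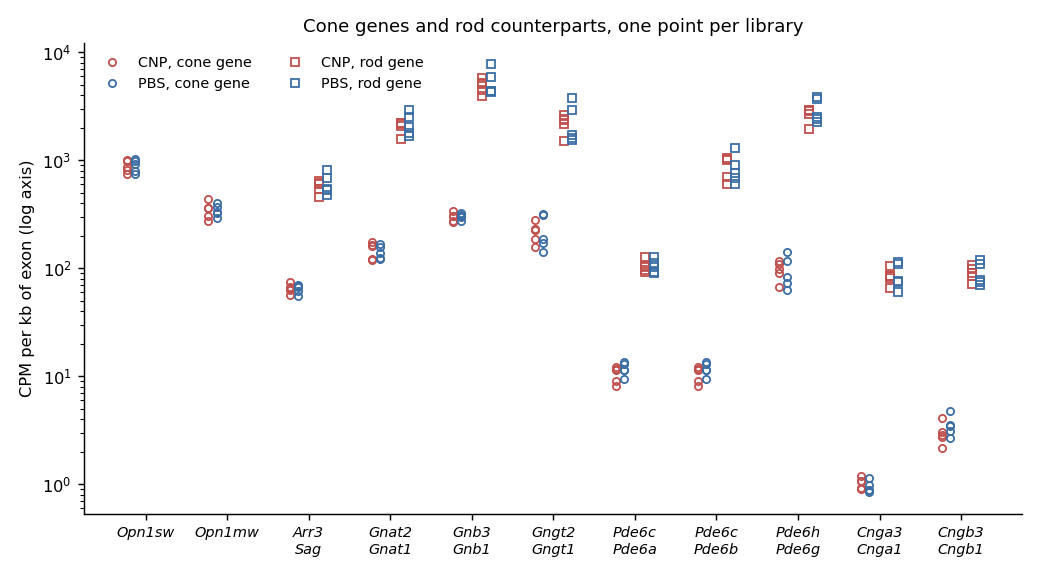
Level of each cone gene (circles) and, for all but the opsins, its rod counterpart (squares) in CPM per kilobase of exon on a log axis, with 1 point per library, CNP left of PBS. Every cone gene shown with a rod counterpart lies below it in both groups, and Opn1sw at 880 in CNP and 890 in PBS is the highest of the cone genes while Cnga3 at 1.03 in CNP and 0.947 in PBS is the lowest.

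The opsins did not differ detectably between the groups. Opn1sw (ENSMUSG00000058831, chromosome 6), the short-wavelength pigment, had 1885, 2081, 2554, 2530 and 2198 CPM in CNP 4, 8, 12, 16 and 20, and 2013, 2357, 1888, 2630 and 2487 CPM in PBS 2, 6, 10, 14 and 18. The groups overlapped over nearly their whole ranges, and the lowest library of each group stood at almost the same level. Its log2 fold change, CNP over PBS, was -0.02 (SE 0.139, 95% interval -0.32 to 0.29). Opn1mw (ENSMUSG00000031394, chromosome X), the middle-wavelength pigment, had 479, 429, 566, 558 and 680 CPM in the CNP libraries in the same order, and 454, 511, 510.4, 626 and 577 CPM in the PBS libraries. CNP held both the lowest and the highest library, CNP 8 and CNP 20, and the log2 fold change was 0.02 (SE 0.136, 95% interval -0.28 to 0.31).

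The ratio of the opsins is free of library size. Opn1sw made up 79.7%, 82.9%, 81.8%, 81.9% and 76.4% of opsin counts in CNP 4, 8, 12, 16 and 20, and 81.6%, 82.2%, 78.7%, 80.8% and 81.2% in PBS 2, 6, 10, 14 and 18. CNP 20 was the lowest library, with an exact Clopper-Pearson 95% interval of 75.6% to 77.1% that met no other library's, and PBS 10 was the lowest of PBS (77.9% to 79.5%). These intervals cover counting error only, so libraries of the same group differed by more than counting. The count ratio was 4.21 ± 0.640 in CNP and 4.25 ± 0.344 in PBS (SD, n = 5 each). The log2 ratio differed by -0.02 between CNP (2.06 ± 0.23) and PBS (2.08 ± 0.12), with p = 0.849 in an exact two-sided permutation test, whose smallest possible p is 0.00794. The sign of this difference changed without CNP 20 (0.07) or PBS 6 (0.01).

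**Figure D2:**
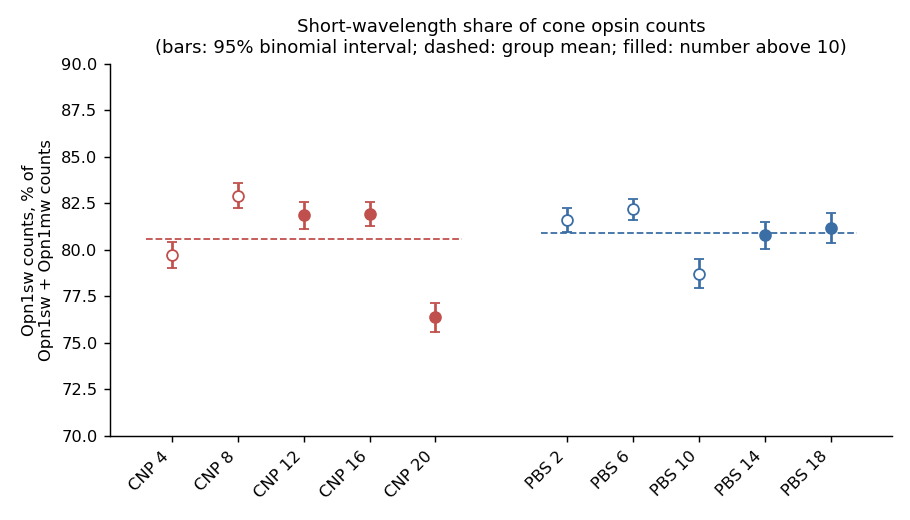
Opn1sw counts as a percentage of Opn1sw plus Opn1mw counts in each library, CNP left and PBS right, with 95% binomial intervals, dashed group means and filled points for libraries numbered above 10. CNP 20 at 76.4% lies lowest, and the group means of 80.6% in CNP and 80.9% in PBS nearly coincide.

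Cone arrestin and transducin gave similar values. Arr3 (ENSMUSG00000060890, chromosome X), which binds the activated, phosphorylated cone opsins and ends their signalling, had 148, 134, 159, 154 and 175 CPM in CNP 4, 8, 12, 16 and 20, against 146, 131, 159.7, 163 and 156 CPM in PBS 2, 6, 10, 14 and 18. It was among the least variable members, with a coefficient of variation of 9.69% in CNP and 8.67% in PBS, and its log2 fold change was 0.03 (SE 0.0984). Gnat2 (ENSMUSG00000009108, chromosome 3), the alpha subunit that carries the signal from opsin to phosphodiesterase, had 365, 353, 519.9, 489 and 484 CPM in the CNP libraries and 368, 366, 415, 506 and 471 CPM in the PBS libraries. In CNP, numbers 4 and 8 lay far below the other 3, and in PBS numbers 14 and 18 lay above the other 3. Its log2 fold change was 0.06 (SE 0.142, 95% interval -0.25 to 0.36).

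Gnb3 (ENSMUSG00000023439, chromosome 6), the beta subunit, had 791, 714, 696, 883 and 805 CPM in CNP 4, 8, 12, 16 and 20, and 846, 792, 779, 825 and 725 CPM in PBS 2, 6, 10, 14 and 18. Its spread of 5.88% in PBS was the smallest of any member in either group, and its log2 fold change was -0.03 (SE 0.102). Gnb3 is also used by ON bipolar cells, whose 12 markers summed to 1341 to 1940 CPM in CNP and 1565 to 1836 CPM in PBS, and the share of Gnb3 that comes from cones was not tested. Gngt2 (ENSMUSG00000038811, chromosome 11), the gamma subunit, had 353, 292, 523, 421 and 434 CPM in the CNP libraries and 324, 263, 347, 594 and 582 CPM in the PBS libraries. PBS 14 and PBS 18 stood above every CNP library, and the other PBS libraries stood at or below the CNP median. Its log2 fold change was -0.06 with the widest error of the 10 in this fit (SE 0.232, 95% interval -0.56 to 0.44).

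The catalytic effector subunit and both channel subunits had the lowest levels of the 10, by CPM and per kilobase. Pde6c (ENSMUSG00000024992, chromosome 19), the catalytic subunit, had 34.4, 23.9, 26.5, 36.4 and 34.1 CPM in CNP 4, 8, 12, 16 and 20, and 33.7, 27.9, 33.6, 40.5 and 38.4 CPM in PBS 2, 6, 10, 14 and 18. A single CNP library, CNP 16, exceeded the PBS mean, and the log2 fold change was -0.16 (SE 0.143, 95% interval -0.46 to 0.15). Pde6h (ENSMUSG00000064330, chromosome 6), the inhibitory gamma subunit, had 705, 527, 915, 770.1 and 854 CPM in the CNP libraries and 565, 497, 655, 1104 and 911 CPM in the PBS libraries. As with Gngt2, PBS held both the lowest and the highest library, and the log2 fold change was 0.02 (SE 0.219, 95% interval -0.46 to 0.49).

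Cngb3 (ENSMUSG00000056494, chromosome 4), the modulatory channel subunit, had 10.2, 13.5, 14.5, 12.9 and 19.1 CPM in CNP 4, 8, 12, 16 and 20, and 16.7, 14.5, 16.1, 12.7 and 22.4 CPM in PBS 2, 6, 10, 14 and 18. Its log2 fold change of -0.23 was the most negative of the members (SE 0.187, 95% interval -0.64 to 0.17, edgeR unadjusted p = 0.233), 1 of 5 CNP libraries exceeded the PBS mean, and the groups overlapped. This value was -0.11 without PBS 18, -0.13 without CNP 4 and -0.37 without CNP 20, and in the fits without PBS 18 or without CNP 4 Pde6c was the more negative of the pair (-0.12 without PBS 18 and -0.19 without CNP 4). Cnga3 (ENSMUSG00000026114, chromosome 1), the subunit that forms the pore, had 3.66, 4.22, 4.21, 3.57 and 4.72 CPM in the CNP libraries and 4.55, 3.46, 3.49, 3.32 and 3.90 CPM in the PBS libraries. It rested on 11 to 27 counts per library, for which counting alone gives a coefficient of variation of 23.9%, more than the 11.6% in CNP and 13.3% in PBS that were observed. Its log2 fold change was 0.11 (SE 0.179, 95% interval -0.28 to 0.49). The SE was 0.231 with no low-count filter and 0.280 in DESeq2, so the Cnga3 interval may be too narrow. A change inside that interval, or a larger one, could have gone undetected at this depth.

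**Figure D3:**
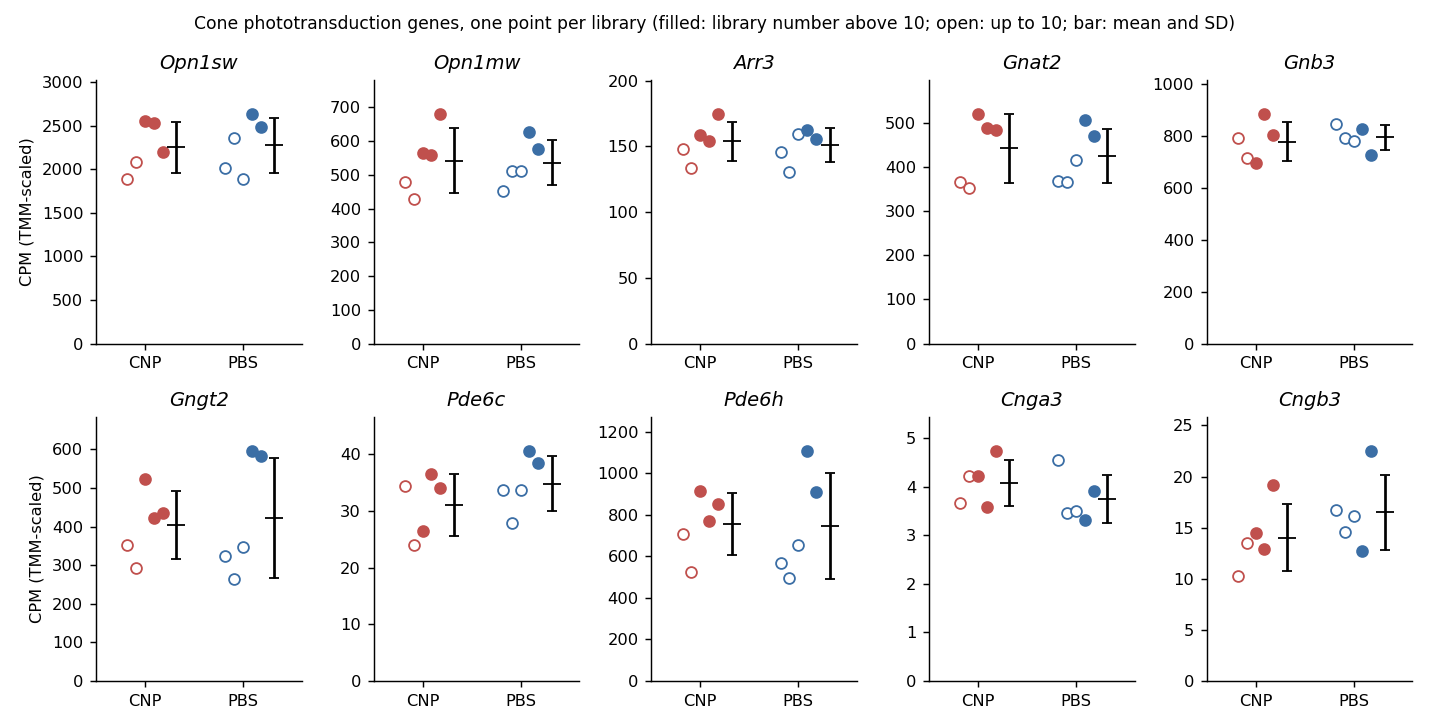
CPM of the 10 cone genes in each library, with CNP left of PBS in every panel, filled points for libraries numbered above 10, open points for those up to 10, and bars for the mean and SD of 5 libraries. The groups overlap in every panel, while filled points lie above all open points for Opn1mw, Gnat2, Gngt2 and Pde6h.

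Across the cascade, 0 of 10 members passed edgeR's quasi-likelihood test at an adjusted p under 0.05 (every member had an adjusted p of 0.9997), and percent called over all 11499 genes was 0%, in either direction. At an unadjusted p under 0.05 there were 0 members against 1.19% of all genes, and DESeq2 also called 0 members. The members' log2 fold changes lay between -0.23 and 0.11, 5 positive and 5 negative (51.2% of all genes were negative), with a median of -0.00057 beside -0.0036 over all genes tested. With the library number as a term, given below, all members but Cnga3 were negative, beside a median of 0.0030 over all genes. The median size of the change, sign aside, was 0.04 for the members and 0.09 for all genes. For 9 of 10 members (all but Cngb3) the 95% interval lay within a 1.5-fold change in either direction, as it did for 65.3% of all genes, and for 10 of 10 it lay within 2-fold (94.2% of all genes). The Cnga3 interval in these counts may be too narrow, as given above. The groups failed to overlap for 0 members and for 0.287% of all genes.

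**Figure D4:**
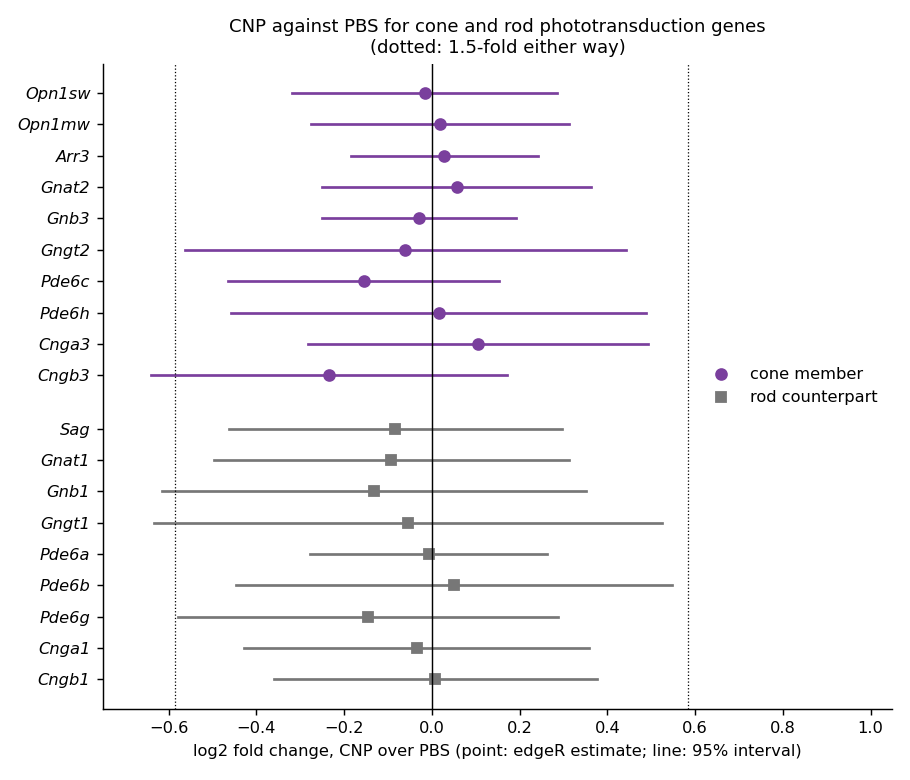
edgeR log2 fold change of CNP over PBS with 95% intervals for the 10 cone genes (circles, top) and 9 of the 10 rod counterparts (squares, bottom), with dotted lines at 1.5-fold. Every interval includes 0, and among cone genes the interval of Cngb3, from -0.64 to 0.17, reaches past the dotted line.

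The rod cascade gave the frame for these values. Of the 10 rod counterparts 0 passed, 2 were positive and 8 negative, with a median log2 fold change of -0.05. Cone counts made up 5.43%, 6.05%, 5.80%, 6.49% and 5.66% of the summed cone and rod counts in CNP 4, 8, 12, 16 and 20, and 6.29%, 6.71%, 6.17%, 4.88% and 4.95% in PBS 2, 6, 10, 14 and 18. PBS 14 and PBS 18 were the lowest of all libraries, where the rod genes summed to 126753 and 114572 CPM, above the 70944 to 97103 CPM of the CNP libraries. The mean share was 5.89% ± 0.404 in CNP and 5.80% ± 0.831 in PBS (SD, n = 5 each), a difference of 0.03 in the log2 ratio that is given as a value with no test. On the count scale, the cone gene stood at 12.2% ± 1.09 of its rod paralogue for Pde6h over Pde6g in CNP and 10.8% ± 1.24 in PBS. It stood at 7.19% ± 1.03 in CNP and 6.60% ± 0.993 in PBS for Gnat2 over Gnat1, and at 0.778% ± 0.139 in CNP and 0.727% ± 0.211 in PBS for Cnga3 over Cnga1. Other pairs were lower in CNP by their means, with Cngb3 over Cngb1 at 1.66% ± 0.301 in CNP and 2.02% ± 0.459 in PBS, Pde6c over Pde6a at 6.41% ± 1.30 in CNP and 7.11% ± 0.669 in PBS, and Gngt2 over Gngt1 at 5.21% ± 0.413 in CNP and 5.33% ± 0.578 in PBS. These percentages are given with no test. Gnb1, the rod beta subunit, is expressed in many neurons, so its 20752 ± 3082 CPM in CNP and 22739 ± 6463 CPM in PBS are not a rod level alone.

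No gene of the lists that work with the cascade passed the test. Of 14 regulators of the photoresponse in rods, cones or both, 0 passed, with 9 positive and 5 negative values and a median of 0.04. The inhibitor of opsin kinase Rcvrn had -0.04, the cyclase activator Guca1b -0.03, the transducin-binding Pdc -0.08 and the phosphodiesterase-binding Pde6d 0.06. The regulator values ran from -0.08 to 0.23, the highest being Rgs9, which speeds transducin's return to rest (SE 0.269, edgeR unadjusted p = 0.409), and Slc24a1, a rod sodium-calcium-potassium exchanger, had 0.15. Both were named after their values were seen. Of 10 photoreceptor transcription factors 9 could be tested and 0 passed (median 0.0052), among them Nrl, which directs rod fate, at 0.11 and Nr2e3, which represses cone genes in rods, at 0.0066. Rorb, which is needed for photoreceptor differentiation, had -0.08, and Mef2c had 0.09. Crx, whose core motif was searched above, had -0.13 (SE 0.103, edgeR unadjusted p = 0.236), and 0 of 5 CNP libraries exceeded its PBS mean, though the groups overlapped.

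Of 9 further cone-enriched genes 8 had a row, 6 could be tested and 0 passed. All 6 had negative values, from -0.21 to -0.0026 with a median of -0.07, where 51.2% of all genes were negative. Kcne2, a potassium channel subunit, had 95.9, 84.2, 89.7, 93.1 and 96.2 CPM in CNP 4, 8, 12, 16 and 20, and 95.4, 87.8, 97.5, 106 and 125 CPM in PBS 2, 6, 10, 14 and 18 (log2 fold change -0.15, SE 0.103, edgeR unadjusted p = 0.162). No CNP library reached its PBS mean, but the groups overlapped. Thrb, the thyroid hormone receptor that promotes middle-wavelength opsin, had -0.02, Rxrg, its partner receptor, -0.08, and Ccdc136 -0.0026. The list summed to 178 to 186 CPM in CNP and 187 to 214 CPM in PBS, so the sums, which are given with no test, did not overlap, and Kcne2 was their largest part. The gap was narrow, from 186.0 CPM in CNP 20 to 187.3 CPM in PBS 14. It depends on the TMM scaling, whose factor was lowest for PBS 14 (0.8483). Scaled by library totals alone, the sums of this list overlapped between the groups. By TMM-scaled CPM the sums of every other list overlapped, and of single genes 0.287% did not overlap. Clca3a2 had 0 counts in every library (limit 0.0677 CPM, at 3 counts in the pooled total), and Sall3 was too scarce to test.

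Other cell types can carry reads of some members. Gngt2 shares exons on the opposite strand with Abi3, a gene of microglia, in GENCODE M21, and Abi3 held 127 counts in all beside 17421 for Gngt2. The 12 microglia markers summed to 181 to 299.6 CPM in CNP and 199 to 263 CPM in PBS, with none of the 12 at 0 over all libraries (10 tested, 0 passing, median log2 fold change 0.10). Of the ON bipolar markers 10 were tested and 0 passed (median -0.08). Opn1sw likewise overlaps Calu (2432 counts beside 99173), and Pde6h overlaps Arhgdib (582 counts beside 31869), each on the opposite strand. The strand setting of the counting was not stated, so reads in these overlaps cannot be told apart. Of the other lists, 8 Müller glia genes (8 tested, median 0.02) and 10 amacrine and ganglion cell genes (10 tested, median -0.16) had 0 members passing. So did 8 tested pigment epithelium genes (median 0.33) and 10 tested lens genes (median -1.35), whose part in the cone values was not tested.

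Several cone genes differed between libraries by their number in the labels. The split at 10 was chosen with earlier results of these data known. The p-values for it are therefore descriptions and no independent test. In a fit with both terms, Gngt2 was higher in the 5 libraries numbered above 10 than in the 5 up to 10 by a log2 fold change of 0.72 (SE 0.110, edgeR adjusted p = 0.000562). Pde6h was higher by 0.64 (SE 0.115, adjusted p = 0.00121), Gnat2 by 0.41 (SE 0.0755, adjusted p = 0.00133), Opn1mw by 0.35 (SE 0.0856, adjusted p = 0.00705) and Opn1sw by 0.29 (SE 0.0898, adjusted p = 0.0227). The Opn1sw call was lost without CNP 12 (adjusted p = 0.0544) and without PBS 14 (adjusted p = 0.0591), and the other 4 passed without any 1 library. Pde6c passed as well without CNP 4 (adjusted p = 0.0367), and Arr3 without PBS 10 (adjusted p = 0.0441). With all libraries 5 of 10 members passed, where 14.4% of all genes were called higher and 16.7% lower. For Gngt2, Pde6h, Gnat2 and Opn1mw every library above 10 exceeded every library up to 10 (9.82% of all genes, and 20.6% did not overlap in either direction), with Gngt2 at 421 to 594 CPM above 10 and 263 to 353 CPM up to 10. Gnb3 (0.01, adjusted p = 0.939) and Cnga3 (0.0013, adjusted p = 0.997) did not pass. Scaled by library totals alone, which moves the median of all genes to -0.23, 2 members passed, Gngt2 (0.50) and Pde6h (0.42), where 5.56% of all genes were called higher, and Arr3 (-0.04), Gnb3 (-0.20) and Cnga3 (-0.21) changed sign.

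The number divides each treatment, with CNP 12, 16 and 20 and PBS 14 and 18 above 10. With the number as a term, 0 members passed for CNP against PBS. All members but Cnga3 (0.10) then had a negative log2 fold change, beside a median of 0.0030 over all genes. Many members varied in parallel across libraries, as given below, so these signs are not independent of each other. The most negative were Cngb3 (-0.30), Pde6c (-0.20) and Gngt2 (-0.15). Within the libraries up to 10, the log2 ratio of the CNP to the PBS mean was 0.05 for Gngt2 and 0.11 for Pde6h, and within those above 10 it was -0.36 and -0.25. For Opn1sw it was -0.07 up to 10 and -0.08 above 10, for Pde6c -0.12 and -0.29, and for Cngb3 -0.41 and -0.18. Cnga3 was positive in both sets (0.04 and 0.21), and Opn1mw, Arr3, Gnat2 and Gnb3 differed in sign between them. The libraries above 10 had smaller totals (3328518 to 4337612 counts, against 4325794 to 5428697). By TMM-scaled CPM they had more rod RNA (84464 to 126753 CPM, against 68994 to 83125 CPM). They also had more pigment epithelium RNA (1729 to 2998 CPM, against 590.3 to 1494 CPM). With library totals alone as the scale, the rod sums overlapped between the sets, while the pigment epithelium sums did not. Müller glia markers had a lower median above 10 (3931 CPM, against 4829 CPM), as had amacrine and ganglion cell markers (1724 CPM, against 2269 CPM), and both sets of sums overlapped. Without overlap were the GABA-synthesising enzyme Gad1, at 72.2 to 119 CPM above 10 and 133 to 229 CPM up to 10, and the glycine transporter Slc6a9, at 77.9 to 108 CPM above 10 and 134 to 246 CPM up to 10. Of all genes, 20.6% did not overlap at this split. The most counted genes of the amacrine and ganglion cell list, Nefl (34705 counts) and Sncg (25101 counts), are not shown for this split. Gad1 and Slc6a9 therefore do not stand for the list. The part of library totals and of these other cell types in the cone values was not tested, and the labels do not say what the number stands for.

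**Figure D5:**
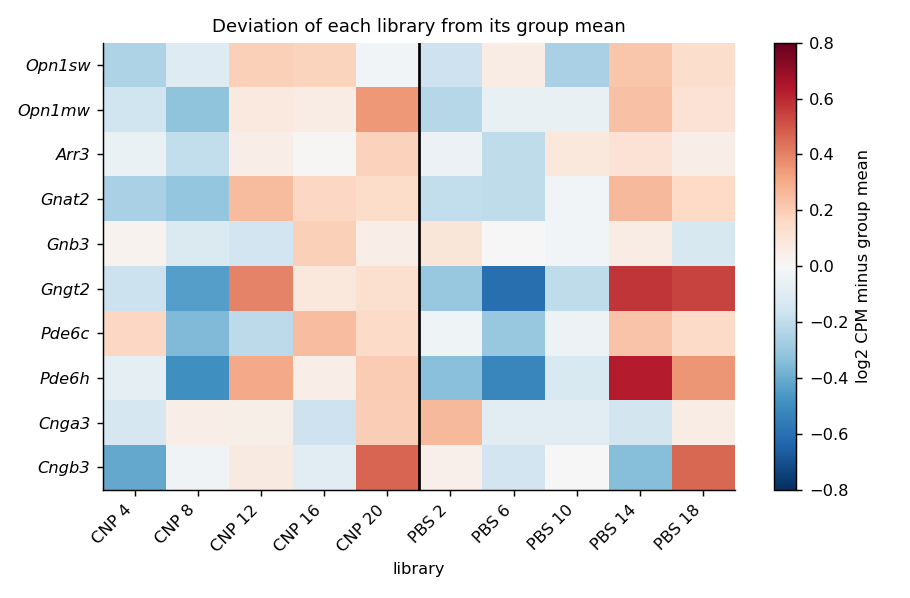
Deviation of each cone gene's log2 CPM from its group mean (colour scale), with genes down the side and libraries across, CNP left of the black line and PBS right. Gngt2 and Pde6h are low in CNP 8 and PBS 6 and high in CNP 12, PBS 14 and PBS 18, and the rows of Arr3 and Gnb3 are pale throughout.

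The members varied in parallel to different degrees from library to library. After each gene was centred on its group means, 34 of the 45 pairs of members had a positive Pearson r over the 10 libraries, with a median of 0.39 and a range of -0.30 to 0.97. The closest pair was Gngt2 and Pde6h (r = 0.97, Spearman rank correlation 1), and Gnb3 with Cngb3 was the most opposed. The libraries fall into the separate sets just described for these genes, so the values are descriptions with no test. Outside the cascade, the genes with a symbol whose centred pattern was most like the members' mean were Vbp1, a prefoldin subunit (r = 0.99), Rbx1, a RING protein of cullin ubiquitin ligases (r = 0.97), Rps27l, a ribosomal-protein-like gene (r = 0.97), and Pdia5, a disulfide isomerase (r = 0.97). All 4 were higher in every library above 10 than in any up to 10, for Rbx1 at 1222 to 1415 CPM above 10 and 848 to 1017 CPM up to 10, and the remaining gene of the closest 5 carries no symbol. The members' centred mean was itself higher in every library above 10, so genes picked for likeness to it share that split largely by selection. Of all genes, 9.82% were higher in every library above 10.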

How the data were processed

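Polyadenylated RNA was reverse transcribed with barcoded primers that carry unique molecular identifiers, amplified, and built into sequencing libraries using reagents from 10x Genomics, per the labels' protocols. The submitters' processing notes name STAR, STARsolo and build GRCm39. Tool versions, annotation, strand setting and any collapsing of identifiers were not given in the sources used here. The authors deposited raw whole-number counts per Ensembl gene for 57186 genes in 10 libraries. Columns were matched to libraries by name, and gene symbols by Ensembl ID (51880 matched).

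Counts were filtered with filterByExpr (minimum count 10, minimum total 15), scaled by TMM and fitted in R 4.3.3 with the quasi-likelihood test of edgeR 4.0.16, which is two-sided, over all 11499 genes with Benjamini-Hochberg adjustment, threshold 0.05. DESeq2 1.42.0 was an alternative. Standard errors and 95% intervals follow from the F statistic. Log2 CPM used a prior count of 2, and the opsin ratio a pseudocount of 0.5. The 20 pairs of libraries within groups differed by 3.99 to 32.6 chi-square units per degree of freedom, so none was a duplicate.

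The fit was tested on simulated data before use. The named genes were all 10 members, up to 4 genes of highest mean CPM per further list, and the 5 genes most like the members' mean. Rod paralogues set against a member, genes at 0 or too scarce to test, and genes overlapping a member were named besides. The values of 1 rod counterpart are not reported here. The members, lists and the split by library number at 10 were chosen with earlier results of these data known.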

Additional observations from a re-analysis of the deposited data

How the results depend on the processing

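Counts of called genes and of called members were 0 under DESeq2, DESeq2 size factors, library totals, no filter, the number term and without each library in turn. Among all genes, unadjusted p under 0.05 was met by 137 genes in edgeR, 146 in DESeq2, 422 with no filter, 272 with the number term and 117 to 301 without 1 library, and by 0 members in each. With library number above 10 as a term, the log2 fold change turned to -0.057 for Opn1mw, -0.0084 for Arr3, -0.034 for Gnat2 and -0.073 for Pde6h. Leaving out 1 library gave ranges of -0.073 to 0.045 for Opn1sw, -0.076 to 0.098 for Opn1mw, -0.022 to 0.080 for Arr3, -0.0092 to 0.13 for Gnat2, -0.079 to 0.0081 for Gnb3, -0.19 to 0.10 for Gngt2 and -0.10 to 0.20 for Pde6h, and the cause was not tested. Pde6c (-0.229 to -0.068), Cngb3 (-0.372 to -0.113) and Cnga3 (0.049 to 0.199) kept their sign but moved by over 1.5 times. The opsin log2 ratio difference ranged from -0.079 to 0.068 without 1 library, and was 0.047 within the libraries up to 10 (exact permutation p = 0.8, smallest possible 0.1) and -0.07 above 10 (p = 1). The cone to rod difference ranged from -0.03 to 0.09 without 1 library.

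The count of members higher in libraries numbered above 10, with alternatives chosen after seeing the data, was 5 with DESeq2 size factors and with no filter, 4 to 6 without 1 library, and 2 with library totals only. The labels do not say whether libraries of the groups are paired, and no paired analysis was made. Depth limited Cnga3 most, with 175 counts over all libraries.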
